A study of Mus musculus with 8 samples.

Results

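The 45 genes described here encode the proteins that copy nuclear DNA, from the origin recognition complex to the replicative polymerases and the enzymes that supply deoxynucleotides. They were chosen by name, and each was placed in the 50 kb bin of the GRCm38 genome that holds its start in the GENCODE M21 annotation. The deposited matrices number their bins and hold no coordinates, so the bins were rebuilt from the MboI fragments of that genome, which gave 53357 bins, the size the matrices state. All 45 starts fell in different bins, and all 45 bins were among the 47332 autosomal bins that could be analysed, of which 13301 held the start of at least 1 of 21938 protein-coding genes. The rule uses gene names and no measured value, but the set was drawn up with earlier results of these data known.

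The contacts of these bins were measured by in situ Hi-C, which joins and sequences DNA ends that lie close together in the fixed nucleus, so that each read pair records 1 contact between 2 places. The cells were splenic B cells of male mice aged 6 to 12 weeks, labelled C57BL/6 and, by the study's methods, with a C57BL/6 Pep3b background. They were isolated by negative selection and activated in culture by bacterial lipopolysaccharide (LPS) at 25 µg/ml. There were 8 libraries, with 2 biological replicates in each of 4 groups. The groups were activated but undivided cells at 3 h, at 10 h and at 33 h, the last called imminent division, and cells at 33 h that had not begun to copy their DNA, called pre-S. These last came from C57BL/6 FUCCI mice, whose cells carry fluorescent proteins fused to fragments of Cdt1 and geminin, and they were sorted on those reporters. Transgene, gate and cell cycle stage therefore differ together between the pre-S and imminent division groups, and cannot be told apart. Against 3 h and 10 h, time since activation differs along with transgene, gate and any difference in cell cycle stage. These cannot be told apart either. The imminent division cells were not sorted by cell cycle stage, so that group can also hold cells that had not begun S phase. Hi-C holds no expression values, so the identity of the cells could not be checked against marker genes here.

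Replication is prepared before it begins. In G1 the origin recognition complex (the Orc proteins), Cdc6 and Cdt1 load the ring of Mcm2 to Mcm7, the core of the replicative helicase, onto DNA, and geminin (Gmnn) later binds Cdt1 and stops further loading. At the start of S phase the kinase Cdc7 with its activator Dbf4, together with Cdc45, the GINS complex and Mcm10, turns the loaded rings into moving helicases. Primase and DNA polymerases alpha, delta and epsilon then make the new strands, held to DNA by the clamp Pcna, which the Rfc complex loads. Many of the genes are classic targets of the E2F factors, which drive the G1 to S transition, and a resting B cell switches them on as it prepares for its first division.

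The table of RefSeq promoter windows used here (GRCm38) gives the 250 bases before the RefSeq start for 37 of the 45 genes. That start can differ from the GENCODE start that placed the gene in its bin. The windows printed for Cdc6 and Mcm7 lie inside the GENCODE gene, and that of Orc1 runs past its GENCODE start. Any of the 4 words TTTCCCGC, TTTCGCGC, TTTGCCGC and TTTGGCGC, read on either strand and allowed to overlap, was found in 8 of the 37, or 21.6%, against 2.16% of the 27025 gene symbols with such a window. The 8 were Mcm5, Mcm6, Mcm7, Cdc6, Gins3, Orc1, Orc3 and Rfc3. The CCAAT box was found in 22 of the 37, or 59.5%, against 37.5% of symbols. A match is a description of letters, not a bound site. The windows of 4 genes that recur in the results are printed 5′ to 3′ with the matched words in capitals.
Cdc6 (chr11:98907901-98908150, + strand): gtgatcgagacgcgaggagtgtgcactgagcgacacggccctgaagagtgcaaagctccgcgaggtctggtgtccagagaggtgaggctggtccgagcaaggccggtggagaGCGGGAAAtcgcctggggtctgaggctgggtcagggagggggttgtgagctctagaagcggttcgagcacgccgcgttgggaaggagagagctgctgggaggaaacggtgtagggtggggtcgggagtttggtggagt
Orc1 (chr4:108579204-108579453, + strand): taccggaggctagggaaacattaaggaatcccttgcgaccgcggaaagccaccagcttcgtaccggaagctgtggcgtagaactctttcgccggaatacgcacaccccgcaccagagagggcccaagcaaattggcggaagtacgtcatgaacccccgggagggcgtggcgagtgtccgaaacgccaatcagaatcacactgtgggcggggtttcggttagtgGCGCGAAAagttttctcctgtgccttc
Mcm6 (chr1:128359706-128359955, - strand): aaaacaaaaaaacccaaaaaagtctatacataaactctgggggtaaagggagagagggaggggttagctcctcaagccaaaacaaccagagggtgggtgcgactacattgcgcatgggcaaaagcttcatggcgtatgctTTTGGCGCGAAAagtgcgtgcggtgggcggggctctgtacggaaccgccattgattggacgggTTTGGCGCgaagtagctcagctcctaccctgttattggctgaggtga
Mcm7 (chr5:138171884-138172133, - strand): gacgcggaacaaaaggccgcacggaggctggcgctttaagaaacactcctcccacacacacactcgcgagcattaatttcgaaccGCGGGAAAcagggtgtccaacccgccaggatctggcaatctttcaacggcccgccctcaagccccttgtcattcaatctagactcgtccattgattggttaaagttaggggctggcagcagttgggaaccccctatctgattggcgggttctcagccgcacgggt
Mcm6 holds 3 matches, of which 2 overlap, and each of the others holds 1. Mcm7 has 2 RefSeq starts, and the window of the other, also in the bin, holds none. Each of these windows lies inside the 50 kb bin whose contacts are described below.

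A 50 kb bin is much wider than a promoter, and most of these bins hold more than 1 gene. Of the 45 bins, 17 held the start of the named gene alone, 15 held 2 starts, 11 held 3, 1 (Cdc45) held 4 and 1 (Mcm7) held 7. Mcm7 shared its bin with Zfp113, Cops6, Ap4m1, Taf6, Cnpy4 and Mblac1, Mcm4 with Prkdc, Mcm2 with Podxl2, Cdc6 with Rara, Cdt1 with Piezo1 and Aprt, Orc1 with Prpf38a, Orc4 with Mbd5, and Pcna with Cds2. Some starts lay close to a bin end. The start of Orc6 was 82 bases from it, that of Orc5 289, that of Orc4 344 and that of Mcm2 972. Values below belong to bins, and for these genes in particular the neighbouring bin holds part of the locus. The comparison group was the other 13048 bins with the same numbers of gene starts, weighted to the members' numbers. The median GC content was 44.6% in the members' bins, 44.9% in the bins with the same numbers of starts and 41.4% over all bins.

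Libraries held between 88703088 and 218945191 read pairs, and 70.9% to 75.1% of autosomal pairs joined the same chromosome. In a single library a member's bin had 67 to 692 contacts inside itself, 475 to 4908 with bins under 1 Mb away, 147 to 1899 at 1 to 10 Mb and 228 to 4814 beyond 10 Mb, with medians of 316.5, 1822.5, 747.5 and 1415. The second imminent division library stood apart on the sex chromosomes, with 3.74% of read ends on X against 2.39% to 2.84% in the other 7, and 0.0490% on Y against 0.0804% to 0.123%. Both shares run counter to the stated source of male mice alone. Leaving it out ended 29 of the 150 calls that were recomputed for named genes and pairs, and those described below are marked where they are given.

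The 45 bins lay in the A compartment in every library. The compartment value, the first principal component of the contact map in 100 kb bins, is positive in the A compartment, where active and gene-rich chromatin gathers, and negative in B. It was positive at all 45 genes in all 8 libraries. The same was true of 80.6% of other 100 kb bins with the same numbers of gene starts and of 46% of all 100 kb bins. No member's value changed sign in any library.

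Most contacts of a replication gene's bin were short or very long. Contacts under 1 Mb outside the bin itself made up 37.8% and 37.5% of a member bin's cis contacts (median over the 45, 3 h), then 40.3% and 40.8% (10 h), 44.2% and 45.8% (imminent division), and 41.0% and 39.8% (pre-S). Contacts beyond 10 Mb made up 37.4% and 37.9% (3 h), 34.7% and 35.6% (10 h), 31.2% and 32.2% (imminent division), and 32.5% and 34.5% (pre-S). The 2 imminent division libraries had the highest short-range and the lowest long-range shares of the 8. In bins with the same numbers of gene starts the imminent division libraries also had the highest share under 1 Mb, with medians of 37.1% and 36.5% under 1 Mb at 10 h and 43.5% and 43.0% at imminent division. 

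**Figure D1:**
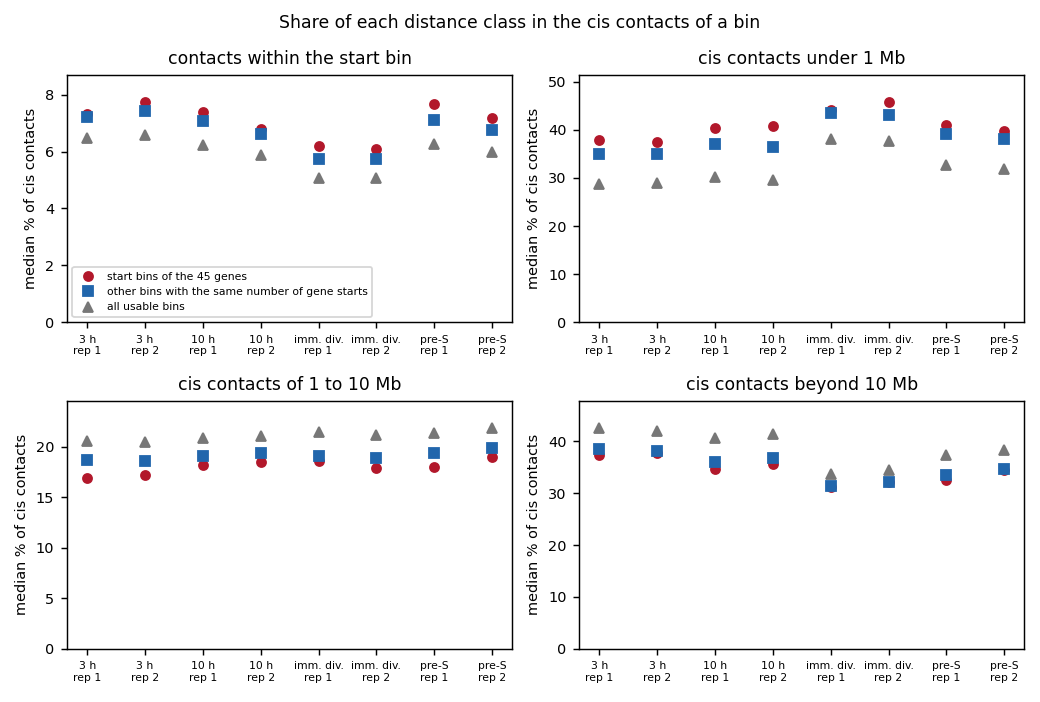
Median share of a bin's cis contacts (percent, y axis) in each of 4 distance classes (panels), for the 45 members' bins, for other bins with the same numbers of gene starts and for all usable bins, with 1 point per library in the order 3 h, 10 h, imminent division and pre-S. Contacts under 1 Mb of the members rise from between 37.5% and 40.8% at 3 h and 10 h to 44.2% and 45.8% at imminent division, and those beyond 10 Mb fall to 31.2% and 32.2%.

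To ask which genes moved against that common shift, the counts of each distance class were tested separately across all 47332 bins with edgeR's quasi-likelihood test, with offsets that set the typical bin of a class to no change. A bin was called at a false discovery rate (FDR) of 5%. A log2 change is that of the group named first over the other, and normalised counts are relative to the same class in the same library. A rise, gain, fall or loss in a distance class below is therefore relative to the typical bin. A bin's own share of its cis contacts can move otherwise. Beyond 10 Mb the share of Pcna was 42.8% and 43.6% at 10 h and 44.2% and 44.1% at imminent division. The median over all bins fell from 40.6% and 41.4% to 33.8% and 34.5%. Under 1 Mb the share of Mcm5 rose from 24.3% and 22.7% to 27.0% and 27.4%, though its bin was called lower. Insulation and compartment values were tested the same way with limma.

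Between 3 h and 10 h no member was called in any distance class. The counts with an unadjusted edgeR p under 0.05 were 2, 4, 4 and 6 of 45 inside the bin, under 1 Mb, at 1 to 10 Mb and beyond 10 Mb, and DESeq2 called 0 in each class. Over all bins the share called higher and lower was 0.00211% and 0% inside the bin, 0.0169% and 0.0275% under 1 Mb, 0.0232% and 0.00211% at 1 to 10 Mb, and 0% in both directions beyond 10 Mb. The groups did not overlap at 13, 16, 16 and 17 of the 45 bins in the same order of classes. The shares of all bins without overlap, or with an unadjusted p under 0.05, are not given here. Neither set of counts is therefore read as a result. 

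From 10 h to imminent division, 4 members were higher and 3 lower inside the start bin, against 6.63% and 7.48% of all bins, which is 8.89% and 6.67% of the members. Under 1 Mb 7 were higher and 15 lower, against 15.1% and 15.8% of all bins and 11.3% and 26.4% of bins with the same numbers of gene starts. At 1 to 10 Mb 4 were higher and 13 lower, against 18.4% and 18.9% of all bins and 9.97% and 31.6% of bins with the same numbers of starts. Beyond 10 Mb 10 were higher and 8 lower, against 15.4% and 17.6% of all bins and 20.5% and 17.0% of bins with the same numbers of starts. The members' shares were 15.6% and 33.3% under 1 Mb, 8.89% and 28.9% at 1 to 10 Mb, and 22.2% and 17.8% beyond 10 Mb. The split under 1 Mb depended on the scaling. With TMM factors in place of loess offsets 0 were higher and 26 lower. The split was 0 and 24 with DESeq2, and 1 and 10 with the coverage of each bin in the offsets. Shares of all bins, here and below, are those of the main fit, so splits under other settings cannot be read against them. The counts moved by over 1.5 times with some single libraries, given in parentheses where left out. Inside the bin they became 1 and 1 (first 10 h) and 2 and 2 (second 10 h), and 0 and 1 with DESeq2. Under 1 Mb they became 1 and 8 (first 10 h), 2 and 6 (second 10 h), and 2 and 11 (first imminent division), and at 1 to 10 Mb 1 and 8 (first 10 h) and 2 and 6 (second 10 h). Without the second imminent division library the splits of the 4 classes, from the bin itself outwards, were 5 and 3, 6 and 10, 3 and 16, and 9 and 10.

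From 10 h to pre-S, 4 members were higher and 2 lower inside the bin, against 6.86% and 6.8% of all bins, and with TMM factors 1 was higher and 9 lower. Under 1 Mb 5 were higher and 10 lower, against 17.7% and 18.1% of all bins and 9.13% and 23.3% of bins with the same numbers of starts. TMM factors gave 1 and 24, DESeq2 1 and 22, and coverage offsets 1 and 5. At 1 to 10 Mb 1 was higher and 17 lower, against 25.1% and 24.2% of all bins and 8.89% and 40.0% of bins with the same numbers of starts. Beyond 10 Mb 4 were higher and 17 lower, against 25.9% and 24.5% of all bins and 10.9% and 35.1% of bins with the same numbers of starts. With coverage offsets the last split was 6 and 5. With the library in parentheses left out, the counts inside the bin became 1 and 1 (first 10 h), 2 and 0 (first pre-S), and 3 and 0 (second pre-S), and 0 and 1 with DESeq2. Under 1 Mb they became 1 and 5 (first 10 h), 2 and 5 (second 10 h), 1 and 2 (first pre-S), and 2 and 7 (second pre-S). At 1 to 10 Mb they became 1 and 10 (second 10 h) and 1 and 8 (first pre-S), and beyond 10 Mb 1 and 10 (first 10 h), 1 and 12 (second 10 h or second pre-S), and 1 and 5 (first pre-S). Both comparisons with 10 h share the 10 h libraries.

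Imminent division and pre-S cells, both at 33 h, had most of their called differences at the longest distances. No member was called inside the bin, where 0.201% of all bins were higher and 0.118% lower, 2 members had an unadjusted edgeR p under 0.05 and DESeq2 called 0. Under 1 Mb 2 members were higher and 3 lower (all bins 5.33% and 3.71%), and at 1 to 10 Mb 1 was higher and 1 lower (4.69% and 2.85%). These few calls moved with the library in parentheses left out, under 1 Mb to 3 and 5 (either 3 h), 1 and 2 (either 10 h), 0 and 0 (second imminent division or second pre-S), and 0 and 1 (first pre-S), and at 1 to 10 Mb to 4 and 1 (either 3 h), 0 and 0 (either 10 h or second imminent division or either pre-S), and 6 and 0 (first imminent division). Beyond 10 Mb 23 of the 45 were higher in imminent division and 0 lower, against 24.9% and 26.4% of all bins and 40.2% and 8.40% of bins with the same numbers of starts. Contacts with other chromosomes moved with this result, since their normalised coverage was higher in imminent division at 40 of the 45 bins, by a median of 0.09 on the log2 scale (0.09 in bins with the same numbers of starts). With that coverage in the offsets 12 members were higher and 2 lower. Leaving out libraries gave counts from 10 without the first pre-S library to 28, with 13 without the second pre-S library and 14 higher and 0 lower without the second imminent division library. By role, the 23 were 7 of the 9 licensing genes, all 3 nucleotide supply genes, 4 of 8 polymerase and primase genes, 4 of 8 origin firing genes, 2 of 6 clamp and loader genes, 1 of 4 genes of single-strand binding and joining, 1 of 6 genes of the MCM ring, and Mcm8.

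**Figure D2:**
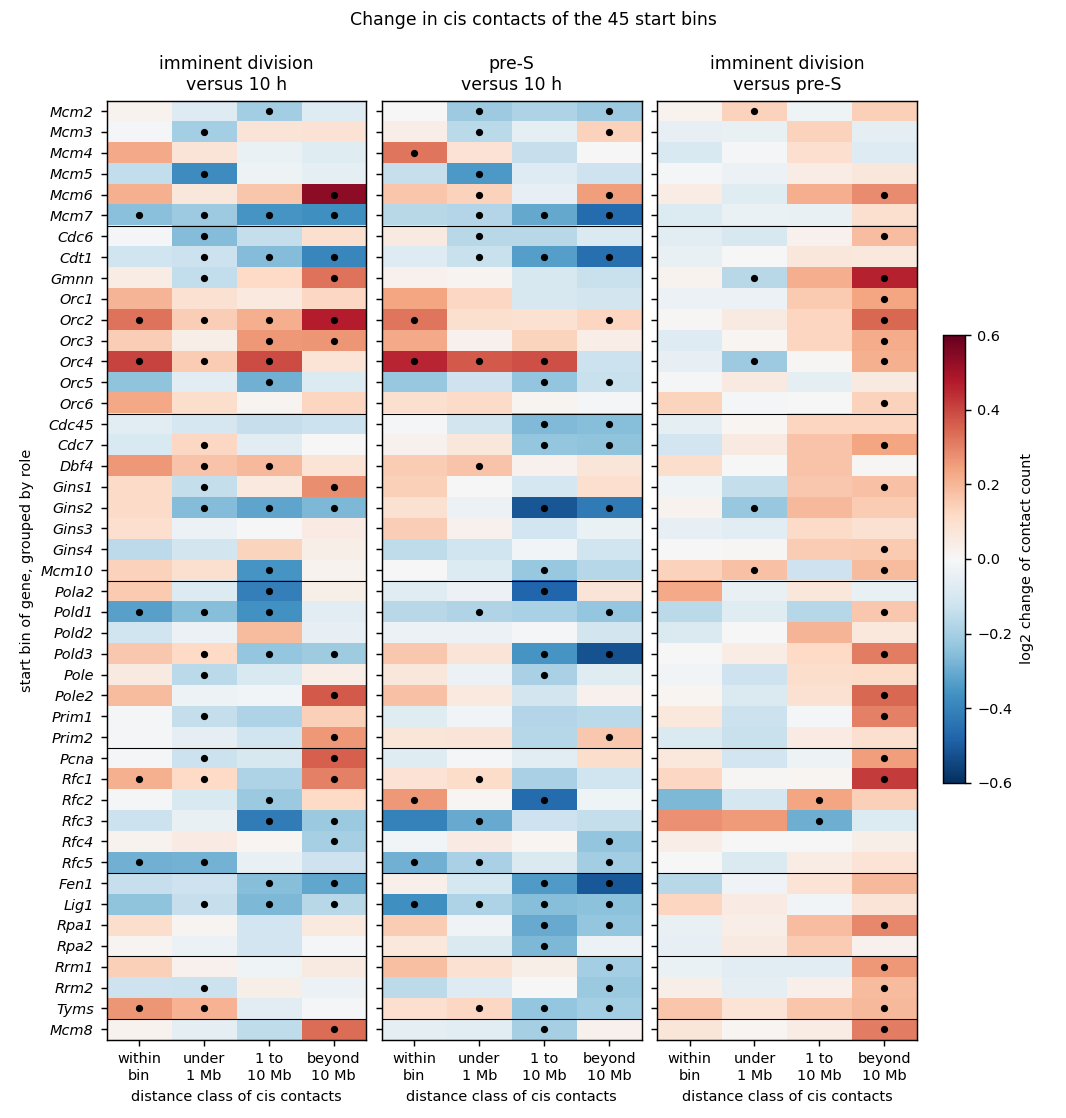
Log2 change (colour, first group over second) of normalised contacts at each of the 45 start bins (rows, grouped by role) in 4 distance classes (columns), for the 2 groups at 33 h against 10 h and against each other, with a dot where the edgeR FDR was under 5%. In the last comparison the column beyond 10 Mb holds 23 dots, all at higher values, while the column inside the bin holds none.

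Of the 6 genes of the MCM ring, whose products form 1 complex in equal numbers, Mcm6 rose and Mcm7 fell beyond 10 Mb at imminent division, and Mcm2, Mcm3, Mcm4 and Mcm5 were not called there. Mcm6 had the largest log2 rise of any member in this class by imminent division, with 1567 and 1507 (3 h), 1437 and 1469.5 (10 h), 2035 and 2179 (imminent division), and 1743 and 1715 (pre-S). Both imminent division libraries were above all others, and the change from 10 h was 0.54 ± 0.053 (log2 ± SE, edgeR FDR 3.47e-05). It was also higher in pre-S cells than at 10 h, by 0.25 (log2, edgeR FDR 0.00235), and higher in imminent division than in pre-S cells, by 0.29 (log2, edgeR FDR 0.00169). Mcm7, which shares its bin with 6 other gene starts, had 1725 and 1562 (3 h), 1606 and 1579 (10 h), 1193 and 1273 (imminent division), and 1089 and 1226 (pre-S). Its change was -0.37 ± 0.065 (log2 ± SE, edgeR FDR 0.00102) to imminent division and -0.46 ± 0.069 (log2 ± SE, edgeR FDR 0.000272) to pre-S, and the 10 h values were above all 4 at 33 h. In pre-S cells Mcm3 was higher than at 10 h in this class and Mcm2 lower, with changes of 0.14 (log2, edgeR FDR 0.0275) and -0.22 (log2, edgeR FDR 0.0128). The Mcm3 call was lost with TMM factors, DESeq2 or the replicate number as a block and without either 10 h or either pre-S library, and the Mcm2 call with coverage offsets and without the first 10 h or either pre-S library. The rise of Mcm6 to pre-S was not called with coverage offsets.

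Mcm7 also had fewer contacts at 1 to 10 Mb, with normalised counts of 1391 and 1299 (3 h), 1324 and 1278 (10 h), 1000.3 and 1034 (imminent division), and 1029 and 1072 (pre-S). The change from 10 h was -0.35 ± 0.061 (log2 ± SE, edgeR FDR 0.000238) at imminent division and -0.31 (log2, edgeR FDR 0.00069) in pre-S cells. Under 1 Mb the largest fall of the ring against the typical bin was at Mcm5. Its normalised counts were 1197 and 1060.5 (3 h), 1209 and 1127 (10 h), 847 and 943 (imminent division), and 929 and 906 (pre-S). All 4 libraries at 33 h were below both at 10 h, with changes of -0.38 ± 0.061 (log2 ± SE, edgeR FDR 0.000141) at imminent division and -0.34 ± 0.067 (log2 ± SE, edgeR FDR 0.000731) in pre-S cells, the latter not called with coverage offsets. Mcm2 fell under 1 Mb in pre-S cells, from 2332 and 2301 at 10 h to 2035 and 1947 in pre-S cells, a change of -0.22 (log2, edgeR FDR 0.00126). It stood at 2229 and 2165 at imminent division, a change from 10 h of -0.08 (log2, edgeR FDR 0.17) that was not called. Mcm3 fell under 1 Mb at both, with changes of -0.21 (log2, edgeR FDR 0.00518) and -0.16 (log2, edgeR FDR 0.0318), but neither held with TMM factors, coverage offsets or DESeq2, and the second turned positive, at 0.11, with coverage offsets. At Mcm6 a rise under 1 Mb in pre-S cells of 0.14 (log2, edgeR FDR 0.0166) turned to -0.15, -0.07 and -0.14 with TMM factors, coverage offsets and DESeq2, and was not called without either 10 h or either pre-S library. Mcm4 rose inside its bin in pre-S cells, by 0.32 (log2, edgeR FDR 0.00966), a call lost under the same 3 alternatives and without the first 10 h or first pre-S library. The Mcm3 calls were lost without the first 10 h library at imminent division and without the first 10 h or either pre-S library in pre-S cells.

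Among the licensing genes, Cdc6 lost short-range contacts and Orc4 gained them. Cdc6, which brings the MCM ring to the origin recognition complex, had normalised counts under 1 Mb of 2802 and 2710.5 (3 h), 2699 and 2675 (10 h), 2303 and 2183 (imminent division), and 2406 and 2376 (pre-S). Every library at 33 h was below every library at 3 h and 10 h, and the change from 10 h was -0.26 ± 0.042 (log2 ± SE, edgeR FDR 0.000138) at imminent division and -0.17 (log2, edgeR FDR 0.00652) in pre-S cells, the latter not called without the first 10 h or either pre-S library. Its bin also holds the start of Rara, the retinoic acid receptor alpha. Orc4, a subunit of the origin recognition complex, had 1545 and 1786 (3 h), 1701 and 1761 (10 h), 1974 and 1881 (imminent division), and 2296 and 2175 (pre-S) under 1 Mb. The change to pre-S was 0.37 ± 0.056 (log2 ± SE, edgeR FDR 0.000135), that to imminent division 0.15 (log2, edgeR FDR 0.0341), and imminent division was below pre-S with a difference of -0.22 (log2, edgeR FDR 0.0173). That difference was not called with TMM factors or DESeq2, nor without the second imminent division or either pre-S library. The rise at imminent division was not called with TMM factors, coverage offsets, DESeq2 or the replicate number as a block, nor without either 10 h, the first imminent division or either pre-S library, while that of pre-S cells was called in every alternative.

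Orc4 rose from 10 h in both groups at 1 to 10 Mb too, from 939 and 1009 at 10 h to 1306 and 1260.1 at imminent division and 1335 and 1218 in pre-S cells. The changes were 0.39 ± 0.065 (log2 ± SE, edgeR FDR 0.000156) and 0.39 ± 0.068 (log2 ± SE, edgeR FDR 0.000175). Inside its bin the changes were 0.41 (log2, edgeR FDR 0.000537) and 0.46 (log2, edgeR FDR 0.000448), not called by DESeq2. Orc2 gained contacts inside its bin, by 0.33 (log2, edgeR FDR 0.00162) and 0.32 (log2, edgeR FDR 0.00575), but neither call held with TMM factors, coverage offsets or DESeq2, nor without the first 10 h or first imminent division library for the first and the first 10 h or first pre-S library for the second. Beyond 10 Mb its rise was kept under all of them, with 1679.6 and 1651 (3 h), 1523 and 1541 (10 h), 2136 and 2115 (imminent division), and 1665 and 1685 (pre-S). The change was 0.47 ± 0.048 (log2 ± SE, edgeR FDR 3.79e-05) from 10 h to imminent division, and imminent division was above pre-S by 0.34 (log2, edgeR FDR 0.000597). Orc1, another subunit of the complex, was called in no bin measure from 10 h to imminent division, and its contacts beyond 10 Mb were above pre-S by 0.23 (log2, edgeR FDR 0.00347), which was not called with coverage offsets.

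Cdt1 and geminin, the loader and its inhibitor, moved in opposite directions at long distance. Beyond 10 Mb Cdt1 had 992 and 831 (3 h), 873 and 858 (10 h), 632 and 686 (imminent division), and 606 and 660.3 (pre-S). The change from 10 h was -0.39 ± 0.079 (log2 ± SE, edgeR FDR 0.00232) to imminent division and -0.45 ± 0.085 (log2 ± SE, edgeR FDR 0.000925) to pre-S, with all 33 h libraries below all 10 h libraries. Gmnn had 1526 and 1453 (3 h), 1378 and 1277 (10 h), 1577 and 1740.4 (imminent division), and 1176 and 1238 (pre-S) in the same class. It rose from 10 h to imminent division by 0.33 ± 0.062 (log2 ± SE, edgeR FDR 0.00154), and imminent division was above pre-S by 0.46 ± 0.064 (log2 ± SE, edgeR FDR 0.000583), the largest such difference among the 45. The change of Gmnn from 10 h to pre-S was -0.14 (log2, edgeR FDR 0.103). The difference between the changes of the 2 genes was not tested. The reporters of the FUCCI mice carry fragments of these 2 proteins, and the labels do not say where the transgenes lie. Under 1 Mb both genes fell at imminent division, Cdt1 with a change of -0.13 (log2, edgeR FDR 0.0249) and Gmnn with a change of -0.15 (log2, edgeR FDR 0.0127), neither called with coverage offsets or without either 10 h or second imminent division library.

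**Figure D3:**
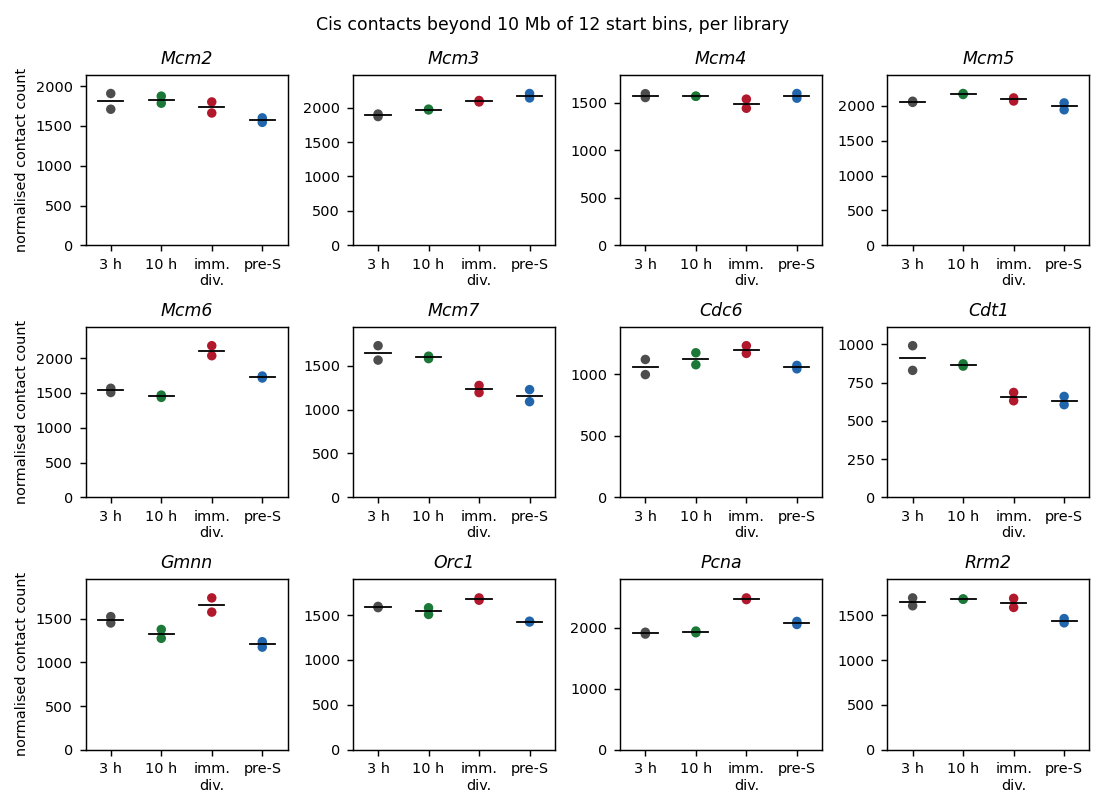
Normalised contacts beyond 10 Mb (y axis) of the 12 genes named in every comparison, with 1 point per library and a line at each group mean of 2 libraries. Mcm6, Pcna and Gmnn are highest at imminent division, and Mcm7 and Cdt1 are lower in all 4 libraries at 33 h than at 10 h.

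The genes of origin firing are Cdc7, Dbf4, Cdc45, Mcm10 and the 4 GINS genes. Of these 8, 1 was higher and 2 lower at 1 to 10 Mb at imminent division, against 18.4% and 18.9% of all bins and 9.97% and 31.6% of bins with the same numbers of starts. In pre-S cells 0 were higher and 4 lower, against 25.1% and 24.2% of all bins and 8.89% and 40.0% of bins with the same numbers of starts. Gins2 had the largest fall of any member at that distance, with 817 and 768 (3 h), 813 and 848 (10 h), 642 and 693 (imminent division), and 539 and 630.5 (pre-S). The change was -0.51 ± 0.079 (log2 ± SE, edgeR FDR 7.29e-05) to pre-S and -0.32 (log2, edgeR FDR 0.00237) to imminent division, the latter not called without the second 10 h library. Beyond 10 Mb Gins2 fell from 10 h to pre-S with a change of -0.42 (log2, edgeR FDR 0.00187), and under 1 Mb it fell to imminent division with a change of -0.26 (log2, edgeR FDR 0.000654) and was below pre-S with a difference of -0.23 (log2, edgeR FDR 0.0128). The last was not called with TMM factors or DESeq2, nor without the second imminent division or second pre-S library. Dbf4 and Cdc7, named after their values were seen, had calls in the other direction at imminent division. Of 6 bin measures there Dbf4 was higher in 3 and lower in 1. Among the 3 was insulation, where 70% of all bins were higher. Cdc7 was higher in 1 and lower in 0. From 10 h to pre-S Dbf4 was higher in 1 and lower in 0, while Cdc7 was higher in 0 and lower in 3. Mcm10, which helps to start the helicase, fell at 1 to 10 Mb at imminent division. It went from 745 and 783 at 10 h to 572 and 624, a change of -0.35 ± 0.072 (log2 ± SE, edgeR FDR 0.000923). Under 1 Mb it was above pre-S at imminent division by 0.17 (log2, edgeR FDR 0.0248), lost with TMM factors, coverage offsets, DESeq2 and the replicate number as a block and without the second imminent division or either pre-S library.

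Of the 8 polymerase and primase genes, 3 were lower and 0 higher at 1 to 10 Mb in each comparison with 10 h, against 31.6% lower of bins with the same numbers of starts at imminent division and 40.0% in pre-S cells (18.9% and 24.2% of all bins). Beyond 10 Mb 2 were higher and 1 lower at imminent division (15.4% and 17.6% of all bins), and 1 higher and 2 lower in pre-S cells (25.9% and 24.5%). Pola2, a subunit of polymerase alpha, had 575 and 534 (3 h), 566 and 532 (10 h), 376 and 446 (imminent division), and 409.8 and 376 (pre-S) at 1 to 10 Mb. The change from 10 h was -0.41 ± 0.083 (log2 ± SE, edgeR FDR 0.000964) to imminent division and -0.48 ± 0.092 (log2 ± SE, edgeR FDR 0.000381) to pre-S, with no overlap between 10 h and 33 h. Pold3, a subunit of polymerase delta, fell most of all members beyond 10 Mb, with 1587 and 1537 (3 h), 1334 and 1312 (10 h), 1132 and 1146 (imminent division), and 915 and 925 (pre-S). Its change was -0.52 ± 0.055 (log2 ± SE, edgeR FDR 4.89e-05) to pre-S, and imminent division was above pre-S by 0.31 (log2, edgeR FDR 0.00139). Pole2, a subunit of polymerase epsilon, rose in the same class to imminent division by 0.37 (log2, edgeR FDR 0.000223), from 1651 and 1667 at 10 h to 2058 and 2222 at imminent division, and was above pre-S by 0.34 (log2, edgeR FDR 0.00087). Pold1, the catalytic subunit of polymerase delta, fell inside its bin and under 1 Mb at imminent division with a change of -0.33 (log2, edgeR FDR 0.000911) and -0.26 (log2, edgeR FDR 0.000395), and under 1 Mb in pre-S cells with a change of -0.18 (log2, edgeR FDR 0.00785). None of these 3 calls held with coverage offsets, and the last was lost without the second 10 h or first pre-S library.

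Pcna, the clamp, rose beyond 10 Mb against the typical bin at imminent division. Its normalised counts were 1927 and 1897 (3 h), 1919 and 1948 (10 h), 2463 and 2491 (imminent division), and 2055 and 2105 (pre-S). The change was 0.36 ± 0.047 (log2 ± SE, edgeR FDR 0.00014) from 10 h, and imminent division was above pre-S by 0.25 (log2, edgeR FDR 0.00178). Under 1 Mb Pcna was called lower at imminent division, a call lost in 4 of the 8 fits that left out a library. The 5 loader genes had calls in both directions. Rfc5 fell under 1 Mb against the typical bin. It had 1639.5 and 1693 at 10 h and 1358 and 1385 at imminent division, a change of -0.28 ± 0.052 (log2 ± SE, edgeR FDR 0.000453). It also fell inside its bin with a change of -0.29 (log2, edgeR FDR 0.00768), not called by DESeq2 or without the first 10 h or first imminent division library, and -0.29 (log2, edgeR FDR 0.0199) in pre-S cells, not called with coverage offsets or without either 10 h or either pre-S library. Rfc3 fell at 1 to 10 Mb at imminent division, from 448 and 474 at 10 h to 331 and 360.1 at imminent division with a change of -0.42 ± 0.087 (log2 ± SE, edgeR FDR 0.00111). Rfc2 fell at the same distance in pre-S cells, from 932 and 864 at 10 h to 629 and 675 in pre-S cells with a change of -0.46 ± 0.072 (log2 ± SE, edgeR FDR 7.57e-05). The differences between the 2 groups at 33 h for these subunits, -0.29 (log2, edgeR FDR 0.049) at Rfc3 and 0.24 (log2, edgeR FDR 0.0433) at Rfc2, were lost with TMM factors, DESeq2 or the replicate number as a block, at Rfc3 also with no filter on bins and at Rfc2 with coverage offsets, and without either 10 h, either imminent division or either pre-S library for Rfc3 or either 10 h, second imminent division or either pre-S library for Rfc2. Calls in the other direction, named after their values were seen, were at Rfc1 and Rfc2. Rfc1 was higher at imminent division inside its bin, by 0.21 (log2, edgeR FDR 0.0476), and under 1 Mb, by 0.12 (log2, edgeR FDR 0.0281), and under 1 Mb in pre-S cells by 0.11 (log2, edgeR FDR 0.0469). Rfc2 was higher inside its bin in pre-S cells, by 0.26 (log2, edgeR FDR 0.0271). None of these 4 calls held with TMM factors, coverage offsets or DESeq2, nor without the first 10 h library.

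Fen1 and the genes of nucleotide supply fell beyond 10 Mb in pre-S cells. Of Rpa1, Rpa2, Lig1 and Fen1, which coat single strands, join fragments and trim flaps, all 4 were lower at 1 to 10 Mb in pre-S cells and 3 were lower beyond 10 Mb. Of all bins 24.2% and 24.5% were lower, and of bins with the same numbers of starts 40.0% and 35.1%. The most changed was Fen1, with 1113 and 1016 (3 h), 1053 and 1011 (10 h), 778 and 878 (imminent division), and 687 and 766 (pre-S) beyond 10 Mb, a change to pre-S of -0.51 ± 0.078 (log2 ± SE, edgeR FDR 0.000319). At 1 to 10 Mb its change to pre-S was -0.34 (log2, edgeR FDR 0.000538). Neither Fen1 call held with coverage offsets. Lig1 fell inside its bin in pre-S cells with a change of -0.37 (log2, edgeR FDR 0.0116), lost with coverage offsets and DESeq2 and without the second 10 h or either pre-S library. Rrm1 and Rrm2, the subunits of ribonucleotide reductase, and Tyms, which makes thymidylate, were all lower beyond 10 Mb in pre-S cells than at 10 h and all higher at imminent division than in pre-S cells, but none of these 6 calls held with coverage offsets or without the first pre-S library. For Rrm2 the values were 1692 and 1605 (3 h), 1681 and 1677 (10 h), 1586 and 1687 (imminent division), and 1415 and 1462 (pre-S), with changes of -0.22 (log2, edgeR FDR 0.00481) and 0.19 (log2, edgeR FDR 0.0132). With coverage offsets the first turned to 0.05 and the second was not called, and leaving out the first pre-S library ended the first call, and leaving out the second imminent division or either pre-S library the second. Tyms rose under 1 Mb at imminent division, by 0.21 (log2, edgeR FDR 0.00119), which was not called with TMM factors or DESeq2, and inside its bin by 0.27 (log2, edgeR FDR 0.0188), the latter lost with TMM factors, coverage offsets and DESeq2 and without either 10 h or second imminent division library. Mcm8, a helicase of repair rather than of the replicative ring, rose beyond 10 Mb from 2762 and 2714 at 10 h to 3367 and 3526 at imminent division, by 0.33 ± 0.050 (log2 ± SE, edgeR FDR 0.000316), and was above pre-S by 0.31 (log2, edgeR FDR 0.00109).

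Single contacts were tested as pairs of 50 kb bins, and each called pair is a differential interaction. Of 1458229 pairs tested over the genome, 2923 had a member's bin at 1 end, at a median distance of 950 kb. Between 3 h and 10 h 0 of them were called by edgeR, against 0.000549% stronger and 6.86e-05% weaker of all pairs. An unadjusted edgeR p under 0.05 was found at 211 of the 2923. The share of all pairs under that p is not given here, so the 211 are not read as a result. From 10 h to imminent division 14 were stronger and 107 weaker. These are 0.479% and 3.66% of the members' pairs, against 0.688% and 1.3% of all pairs and 0.599% and 2.94% of pairs at bins with the same numbers of gene starts. They touched 35 of the 45 bins. The share of all bins touched by a called pair is not given here, so the 35 are not read as a result. To pre-S 3 were stronger and 12 weaker, which is 0.103% and 0.411%, against 0.34% and 0.252% of all pairs. At bins with the same numbers of starts these shares were 0.111% and 0.440%. Imminent division differed from pre-S at 5 stronger and 6 weaker pairs, which is 0.171% and 0.205%, against 0.146% and 0.212%. At bins with the same numbers of starts these shares were 0.131% and 0.176%. No called pair joined 2 of the 45 genes. Few of the 2923 tested pairs did, so this is not read as a result.

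These counts depended on single libraries. From 10 h to imminent division, leaving out the second 10 h library left 15 calls, 2 stronger and 13 weaker, leaving out the first left 44, and leaving out the first or second imminent division library left 38 or 52. To pre-S the count was 0 and 3 without the first and second pre-S library and 1 and 3 without the first and second 10 h library. Between the groups at 33 h it was 0 without either pre-S library and 0 without the second imminent division library. Of the 107 weaker pairs at imminent division, 3 were called in all 8 fits that left out a library, 90 with coverage offsets and 99 with TMM factors, while of the 14 stronger pairs 0, 7 and 7 were. Of the 12 weaker pairs in pre-S cells, 1 was called with coverage offsets.

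The 107 weaker pairs at imminent division lay at 31 of the 45 bins, a count without a share of all bins that is not read as a result. Pola2 had 14, Rrm1 10, Cdc6 and Mcm2 9 each, Gins2 and Pold1 6 each, and Gmnn, Mcm7, Prim1 and Rpa1 5 each. Their median distance was 700 kb, and that of stronger pairs 225 kb.

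Rrm1, the large subunit of ribonucleotide reductase at chr7:102400248-102450065, had contacts that weakened on 1 side and strengthened on the other. Its pair with the bin of Clpb at chr7:101650695-101700066, 750 kb towards lower coordinates, had normalised counts of 28.5 and 36.4 (3 h), 46.5 and 57.5 (10 h), 19.1 and 19.6 (imminent division), and 28.7 and 30.9 (pre-S). Both imminent division values were below all 6 others, and the change from 10 h was -1.44 ± 0.236 (log2 ± SE, edgeR FDR 1.57e-05), called in all 8 fits that left out a library. All 10 of its weaker pairs lay towards lower coordinates, at 550 kb to 2250 kb. Towards higher coordinates the pair with the bin of Trim12a and Trim34b at chr7:104299756-104350124, 1900 kb away, had 6.54 and 9.64 (3 h), 6.73 and 5.17 (10 h), 17.8 and 25.6 (imminent division), and 22.7 and 20.1 (pre-S). It rose from 10 h by 1.90 ± 0.407 (log2 ± SE, edgeR FDR 0.00216) to imminent division, and by 1.86 ± 0.446 (log2 ± SE, edgeR FDR 0.0168) to pre-S. All 4 libraries at 33 h were above all 4 before, though counts are low. The first call was lost without the second 10 h or second imminent division library and the second without either 10 h or either pre-S library. The neighbouring bin 50 kb away, which holds the body of Rrm1 and the starts of olfactory receptor genes, was at 172 and 160.2 (10 h) and 239 and 233 (imminent division), a change of 0.51 ± 0.108 (log2 ± SE, edgeR FDR 0.00188) that was not called with TMM factors or without the second 10 h library.

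At Pola2 (chr19:5949904-5999676) the pair with the bin inside Pacs1 at chr19:5200027-5250011, 750 kb away, had 39.5 and 23 (3 h), 44.4 and 37.9 (10 h), 12 and 16.3 (imminent division), and 26.2 and 18.6 (pre-S). The change from 10 h was -1.50 ± 0.271 (log2 ± SE, edgeR FDR 0.000124), called in all 8 fits that left out a library. The third such pair, outside the rule for named pairs and chosen after its values were seen, joined Rfc5 to the bin of Suds3, 300 kb away, with 65.3 and 47.6 (3 h), 88.4 and 82.9 (10 h), 42.5 and 46.6 (imminent division), and 48 and 57.9 (pre-S) and a change of -0.93 ± 0.177 (log2 ± SE, edgeR FDR 0.000337). Cdc6 (chr11:98900155-98949959) lost contact with the bin of the keratin gene Krt24 at chr11:99250009-99299825, 350 kb away, with 93.3 and 81.3 (3 h), 90.0 and 118 (10 h), 50.4 and 58.5 (imminent division), and 62.9 and 68.8 (pre-S). The change was -0.94 ± 0.162 (log2 ± SE, edgeR FDR 5.03e-05), called in 7 of the 8, all but that without the second 10 h library. In all 3 pairs the 33 h values were below those at 10 h, and imminent division was below pre-S. The difference between the groups at 33 h was called at none of the 3. Each pair was chosen for a fall to imminent division, so the order of those groups is not read as a result. Among stronger pairs, that of Orc2 with the next bin, which holds the starts of Fam126b and Ndufb3, had 261 and 289 (3 h), 250.1 and 293 (10 h), 388 and 350.1 (imminent division), and 355 and 366 (pre-S). It rose from 10 h by 0.43 ± 0.090 (log2 ± SE, edgeR FDR 0.0016) and 0.40 ± 0.099 (log2 ± SE, edgeR FDR 0.0237), and neither call held with TMM factors or coverage offsets, nor without the first 10 h or first imminent division library for the first or either 10 h or either pre-S library for the second.

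**Figure D4:**
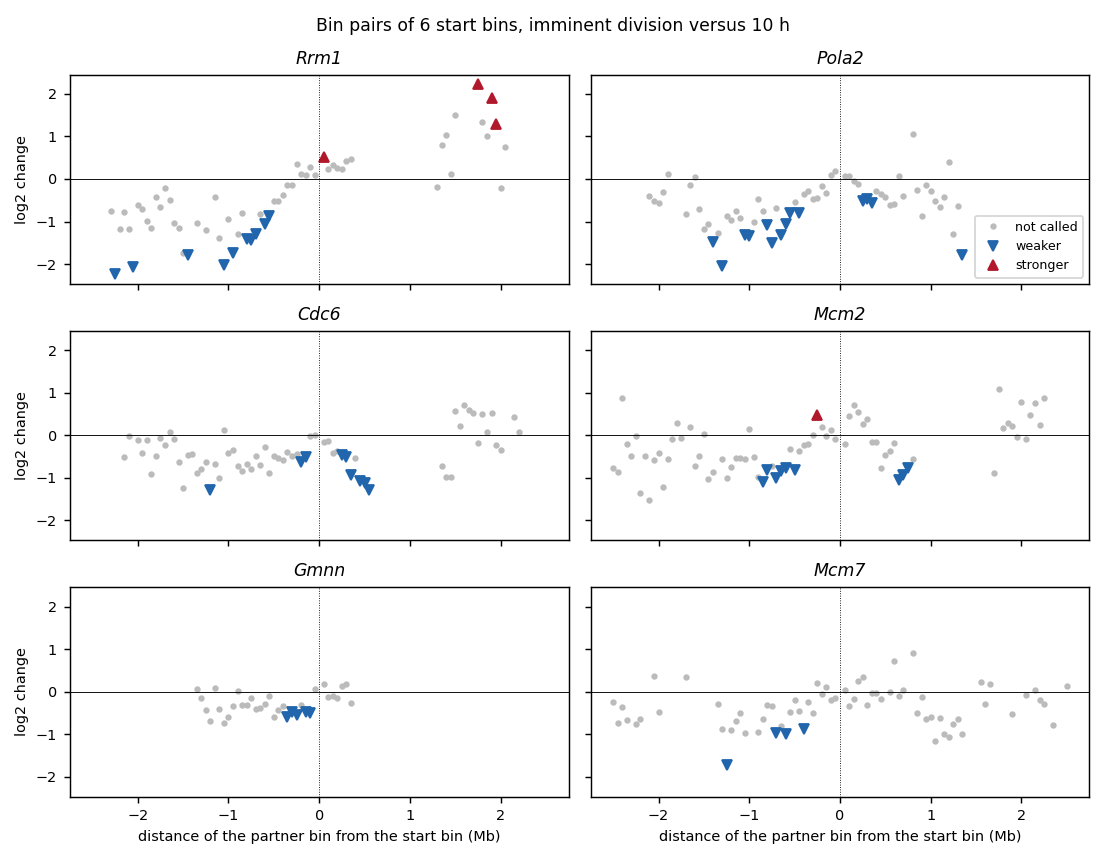
Log2 change from 10 h to imminent division (y axis) of every tested bin pair of 6 start bins, against the distance of the partner bin from the start bin (x axis, Mb, negative towards lower coordinates), with called pairs marked. Rrm1 shows its 10 weaker pairs on the negative side and the stronger pairs near 1.9 Mb on the positive side, and Pola2 and Cdc6 show weaker pairs within 1.5 Mb.

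Mcm2 had 1 stronger and 9 weaker pairs from 10 h to imminent division, and 0 and 2 from 10 h to pre-S. For imminent division against pre-S it had 3 and 0. The pairs of Mcm2 with the bins of Sec61a1 and Eefsec, 350 kb and 500 kb away, fell from 10 h to pre-S with a change of -0.59 ± 0.125 (log2 ± SE, edgeR FDR 0.00336) and -1.03 ± 0.240 (log2 ± SE, edgeR FDR 0.0126). The first was at 243 and 205 (3 h), 222 and 229 (10 h), 184 and 206 (imminent division), and 147 and 153 (pre-S), and the second at 57.5 and 63.4 (3 h), 74.7 and 58 (10 h), 35.2 and 39 (imminent division), and 26.8 and 38.3 (pre-S). Compared with pre-S, imminent division was stronger at pairs 250 kb, 100 kb and 1850 kb away, by 0.58, 0.80 and 2.67 (edgeR FDR 0.0302, 0.0305 and 0.0322). The last, with the bin of Iqsec1, rests on low counts, 10.5 and 13.3 (imminent division) and 2.23 and 1.28 (pre-S). Of the 5 calls that involve pre-S cells only that with Iqsec1 held with coverage offsets, and it was lost with TMM factors. In fits that left out 1 library, the first was lost without the second 10 h or either pre-S library and the second without the first 10 h or first pre-S library. The calls against pre-S were lost without the second imminent division or either pre-S library at 250 kb and 1850 kb and without either imminent division or either pre-S library at 100 kb. Mcm4 was weaker in pre-S cells than at 10 h with the bin of Myh11, 1400 kb away with a change of -1.62 ± 0.383 (log2 ± SE, edgeR FDR 0.0138), also not called with coverage offsets or without the first 10 h or either pre-S library. Pole was stronger with its next bin, by 0.42 ± 0.110 (log2 ± SE, edgeR FDR 0.0338), lost with TMM factors and coverage offsets and without either 10 h or either pre-S library.

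Weaker pairs at imminent division than in pre-S cells were found at Mcm8, Lig1 and Prim1 among others. Prim1, the small subunit of primase, had 114 and 62.3 (3 h), 88.8 and 94.5 (10 h), 50.4 and 50.6 (imminent division), and 86.2 and 84 (pre-S) with a bin inside Lrp1 450 kb away, and the difference was -0.75 ± 0.184 (log2 ± SE, edgeR FDR 0.0247). Those at Mcm8, 1000 kb away, and at Lig1, 1050 kb away with the bin of Obox8, were -1.34 ± 0.310 (log2 ± SE, edgeR FDR 0.0143) and -1.45 ± 0.343 (log2 ± SE, edgeR FDR 0.0179). All 3 were called with TMM factors and with coverage offsets, and none in every fit that left out a library, since each was lost without either pre-S library and without the second imminent division library, and those at Mcm8 and Prim1 also without the first.

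The insulation value, the log2 ratio of contacts crossing a bin to those on its 2 sides, is low where neighbouring domains are kept apart. It was measured for 44 members, all but Rfc3. Their median lay at percentile 27.3 of all bins, and 6 of the 44 (Pole2, Rrm1, Gins4, Mcm4, Mcm2 and Dbf4) were in the lowest 10%, a share of 13.6% against 13.3% of bins with the same numbers of starts. The whole genome shifted in this measure, by a median of 0.05 from 3 h to 10 h, 0.23 from 10 h to imminent division, 0.06 to pre-S and 0.16 from pre-S to imminent division. The members' medians were 0.11, 0.02, -0.01 and 0.01, so from 10 h to imminent division the median member moved by less than the median bin. Bins with the same numbers of starts had 0.08, 0.07, 0.00 and 0.07.

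From 3 h to 10 h 15 members were higher and 3 lower, against 16% and 1.13% of all bins. To imminent division 12 were higher and 11 lower, against 70% and 5.82%, and to pre-S 5 and 4, against 23.4% and 4.49%. Between imminent division and pre-S 8 were higher and 7 lower, against 61% and 2.86%. In bins with the same numbers of starts these shares were 25.8% and 1.15%, 43.9% and 16.5%, 14.2% and 10.3%, and 40.0% and 7.89%. The members' shares were 34.1% and 6.82%, 27.3% and 25.0%, 11.4% and 9.09%, and 18.2% and 15.9%. The shares of all bins above are those of the main test, and the splits that follow under other settings cannot be read against them. In 1 setting, chosen after seeing the data, each library was centred on its own median. The 4 splits were then 7 and 4, 2 and 33, 2 and 10, and 3 and 31. Relative to the chromosome mean they were 0 and 0, 5 and 28, 2 and 19, and 3 and 2, and with a window of 5 bins 2 and 1, 19 and 4, 2 and 2, and 19 and 2. With the library in parentheses left out, the split from 3 h to 10 h became 3 and 1 (second 3 h), 2 and 2 (second 10 h), and 10 and 1 (either imminent division), and from 10 h to pre-S 2 and 2 (first 10 h or second pre-S).

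Some genes changed by more than the genome's shift or against it. Rrm1, among the lowest 10% of bins, had insulation values of -3.34 and -3.48 (3 h), -3.48 and -3.42 (10 h), -2.86 and -2.95 (imminent division), and -3.37 and -3.31 (pre-S). The change to imminent division was 0.54 ± 0.053 (log2 ± SE, limma FDR 2.96e-07) and the difference from pre-S 0.43 ± 0.053 (log2 ± SE, limma FDR 1.01e-05), called in every alternative. Lig1 rose from -2.43 and -2.41 at 10 h to -1.99 and -1.95 at imminent division, by 0.45 ± 0.043 (log2 ± SE, limma FDR 2.05e-07), also kept in every alternative. Pcna went down, from -2.07 and -1.98 at 10 h to -2.35 and -2.29 at imminent division with a change of -0.29 ± 0.050 (log2 ± SE, limma FDR 5.39e-05), and so did Cdc6 with a change of -0.23 (log2, limma FDR 0.000707). Mcm10 fell in pre-S cells with a change of -0.30 (log2, limma FDR 0.000188) and Mcm3 rose there by 0.28 (log2, limma FDR 0.000597). Orc5 and Mcm2 were higher at imminent division than in pre-S cells, by 0.36 (log2, limma FDR 0.000152) and 0.30 (log2, limma FDR 2.87e-05). At Mcm4 a fall came first, from -2.72 and -2.83 at 3 h to -3.13 and -3.17 at 10 h with a change of -0.38 ± 0.050 (log2 ± SE, limma FDR 0.000482), though it was lost with a window of 5 bins or relative to the chromosome mean. From 3 h to 10 h more members were higher (15) than lower (3). The rises of smallest p were at Pold1 and Mcm2, each by 0.24 (log2, limma FDR 0.00221 and 0.00244). Both calls were lost only relative to the chromosome mean. Of the MCM ring, 5 of 6 genes were called higher at imminent division, against 70% of all bins, but none of the 5 calls held relative to the library median. For Mcm2, Mcm6 and Mcm7 the direction turned with the centring: to -0.06 at Mcm2 and -0.19 at Mcm6 relative to the chromosome mean, and to -0.00088 at Mcm6 and -0.08 at Mcm7 relative to the library median. The Mcm7 call was also lost without the first 10 h or second imminent division library.

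Compartment values changed within A. From 3 h to 10 h 1 member was higher and 2 lower, against 2.89% and 2.66% of all 100 kb bins. To imminent division 4 were higher and 13 lower, against 13.6% and 15.8%, and to pre-S 9 and 5, against 10.9% and 13%. Between imminent division and pre-S 2 were higher and 2 lower, against 9.03% and 8.57%. In bins with the same numbers of starts these shares were 1.72% and 2.77%, 10.7% and 20.7%, 12.1% and 16.4%, and 7.49% and 10.3%. The members' shares were 2.22% and 4.44%, 8.89% and 28.9%, 20% and 11.1%, and 4.44% and 4.44%. With quantile normalisation the split to pre-S was 3 and 4 and that between the groups at 33 h 2 and 12, and in 250 kb bins the 4 splits were 2 and 5, 12 and 15, 19 and 10, and 2 and 12. Leaving out the library in parentheses moved the first split to 1 and 0 (either 10 h), the third to 1 and 3 (first 10 h), 2 and 2 (second 10 h or second pre-S), and 6 and 3 (first pre-S), and the last to 2 and 9 (either 3 h), 1 and 1 (first imminent division or second pre-S), and 2 and 0 (second imminent division).

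**Figure D5:**
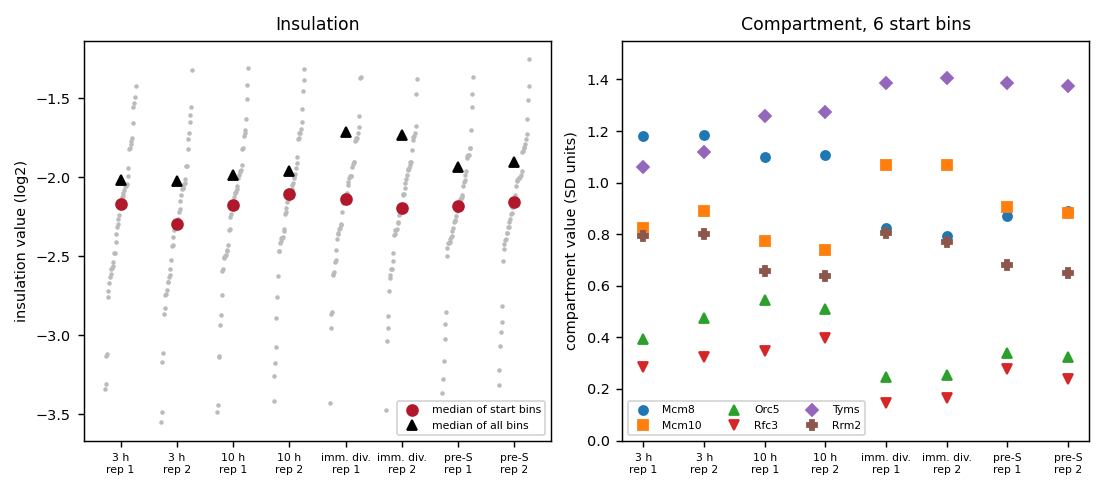
Left, insulation values (log2, y axis) of the 44 start bins in each library (grey points, sorted), with the median of the start bins and of all bins. Right, compartment values (SD units, y axis) of 6 start bins in each library. The median of all bins rises at imminent division by more than that of the start bins, and every compartment value is above 0.

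The clearest compartment changes were at Mcm10 and Mcm8. Mcm10 rose, in SD units, from 0.78 and 0.74 at 10 h to 1.07 and 1.07 at imminent division, by 0.31 ± 0.028 (SD units ± SE, limma FDR 3.74e-05), with 0.91 and 0.88 in pre-S cells between them. Mcm8 fell from 1.10 and 1.11 at 10 h to 0.83 and 0.79 at imminent division with a change of -0.29 ± 0.023 (SD units ± SE, limma FDR 2.46e-05), and with a change of -0.22 (SD units, limma FDR 0.000201) to pre-S. Orc5 fell with a change of -0.28 (SD units, limma FDR 8e-05) and -0.20 (SD units, limma FDR 0.00114), and Rfc3 with a change of -0.22 (SD units, limma FDR 0.000207) to imminent division. Each of these was called in every alternative. Tyms rose early, from 1.06 and 1.12 at 3 h to 1.26 and 1.27 at 10 h, by 0.18 ± 0.026 (SD units ± SE, limma FDR 0.00537). Rrm2 fell over the same interval with a change of -0.15 (SD units, limma FDR 0.00863), lost without either 10 h library, and then rose to imminent division by 0.14 (SD units, limma FDR 0.00143), which turned to -0.09 in 250 kb bins. At Cdt1 imminent division was below pre-S with a difference of -0.14 (SD units, limma FDR 0.0128), lost without the second imminent division or second pre-S library.

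A second list of 39 replication genes, among them accessory subunits, checkpoint mediators, histone chaperones and topoisomerases, was read in the same way. From 3 h to 10 h edgeR called 0 in every distance class, with 2, 4, 3 and 3 bins at an unadjusted p under 0.05 in the 4 classes, where at most 0.0275% of all bins were called in either direction. The counts higher and lower follow, with the shares of all bins in parentheses. From 10 h to imminent division they were 8 and 1 (6.63% and 7.48%) inside the bin, 5 and 14 (15.1% and 15.8%) under 1 Mb, 5 and 8 (18.4% and 18.9%) at 1 to 10 Mb, and 16 and 2 (15.4% and 17.6%) beyond 10 Mb. To pre-S they were 2 and 1 (6.86% and 6.8%), 7 and 8 (17.7% and 18.1%), 5 and 16 (25.1% and 24.2%), and 4 and 12 (25.9% and 24.5%). Between imminent division and pre-S they were 0 and 0 (0.201% and 0.118%), 1 and 0 (5.33% and 3.71%), 4 and 0 (4.69% and 2.85%), and 27 and 1 (24.9% and 26.4%), with 5 inside the bin at an unadjusted edgeR p under 0.05. For insulation, in the order of the 4 comparisons, they were 12 and 0 (16% and 1.13%), 5 and 11 (70% and 5.82%), 2 and 6 (23.4% and 4.49%), and 9 and 8 (61% and 2.86%). For compartment values they were 0 and 1 (2.89% and 2.66%), 2 and 12 (13.6% and 15.8%), 5 and 6 (10.9% and 13%), and 3 and 5 (9.03% and 8.57%). Shares of bins matched to this list in gene starts are not given, so its counts are not read as unusual. Bins matched to the 45 members could differ much from all bins. They had 43.9% and 16.5% for insulation from 10 h to imminent division, and 40.2% and 8.40% beyond 10 Mb between the groups at 33 h.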

How the data were processed

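The authors mapped the read pairs of each in situ Hi-C library to mm10, removed artefact pairs, and deposited raw counts of read pairs per pair of 50 kb bins, with no normalisation. Read pairs carry no molecular identifiers. The 2 libraries of a group were biological replicates, and in every group they differed by more than sampling noise, with a chi-square per bin of 4.20 (3 h), 1.21 (10 h), 7.38 (imminent division) and 1.39 (pre-S).

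Bin coordinates were rebuilt by assigning the MboI (GATC) fragments of GRCm38 to 50 kb bins in chromosome order, which gave the 53357 bins of the file headers. Autosomal bins with at most 10% unknown bases, a coverage within 4-fold of the median and a summed count of at least 10 were kept. ENCODE excluded regions were not used here. For each bin the counts inside the bin, under 1 Mb, at 1 to 10 Mb and beyond 10 Mb were tested separately with edgeR 4.0.16 in R 4.3.3 (quasi-likelihood test, loess offsets, all 4 groups in 1 fit). Bin pairs whose average count exceeded 4-fold the background were tested in the same way. Insulation (10 bins on each side) and the first principal component of 100 kb maps, scaled to SD units, were tested with limma 3.58.1. FDR is Benjamini-Hochberg over all bins or pairs, at 5%. Tests on simulated data preceded the analysis. Alternatives were DESeq2 1.42.0, TMM factors, interchromosomal coverage in the offsets, other filters and windows, a replicate block and leaving out each library. Sums over bins used Python 3.11.15, numpy 2.4.6 and pandas 2.3.3.

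Named are Mcm2 to Mcm7, Cdc6, Cdt1, Gmnn, Orc1, Pcna and Rrm2, with up to 5 called members of smallest p per measure and comparison and up to 3 pairs in each direction. The members and lists were chosen with earlier results of these data known.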

Additional observations from a re-analysis of the deposited data

Results flagged for a closer look

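The second imminent division library had 3.74% of its read ends on chromosome X, outside the autosomal bins analysed here, against 2.39% to 2.84% in the other 7 libraries. Its share on chromosome Y was 0.0490%, against 0.0804% to 0.123%. It was listed because this signal lies in data that the comparisons do not use. Without this library the members called higher and lower beyond 10 Mb between imminent division and pre-S were 14 and 0, and the member pairs called stronger and weaker from 10 h to imminent division were 6 and 46.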

How the results depend on the processing

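The groups had 2 libraries each, which limits every test, and counts are lowest inside the start bin and for single pairs. Of the 150 named results 56 kept their direction and their call in every alternative, among them 0 of 11 inside the start bin and 2 of 18 bin pairs. Of their 1855 recomputed values, 1488 kept their direction and their side of the FDR threshold, 348 kept their direction and lost the call, and 19 turned in direction. Leaving out a 10 h library ended 40 or 41 of the 150 calls, and leaving out a pre-S library 42 or 40. The cause of the changes below was not tested. Calls of members are given as higher and lower together, first for imminent division and then for pre-S cells, each against 10 h, and last for the groups at 33 h, unless a comparison is named.

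With TMM factors in place of loess offsets the calls inside the bin were 4 (7 in the main analysis) and 10 (6) in the comparisons with 10 h. Under 1 Mb they were 25 (15) for pre-S versus 10 h and 0 (5) between the groups at 33 h, and at 1 to 10 Mb 0 (2) between the groups at 33 h. Called pairs became 196 (121) and 31 (15) in the comparisons with 10 h. With coverage in the offsets the calls inside the bin were 3, 1 and 1, the last against 0. Under 1 Mb they were 11 and 6 in the comparisons with 10 h, and at 1 to 10 Mb 2 from 3 h to 10 h (0) and 6 between the groups at 33 h. Beyond 10 Mb they were 3 from 3 h to 10 h (0), 11 (21) for pre-S versus 10 h and 14 (23) between the groups at 33 h. Called pairs became 1 from 3 h to 10 h, then 188, 4 and 69. DESeq2 called 1 and 1 inside the bin in the comparisons with 10 h, 23 for pre-S versus 10 h and 0 between the groups at 33 h under 1 Mb, and 11 (17) for imminent division versus 10 h and 0 between the groups at 33 h at 1 to 10 Mb. With no filter on bins the last was 1, and with an 8-fold filter the called pairs for pre-S versus 10 h were 28.

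For compartment values quantile normalization gave 6 from 3 h to 10 h (3), 7 (14) for pre-S versus 10 h and 14 (4) between the groups at 33 h, and 250 kb bins gave 7 from 3 h to 10 h, then 27 (17), 29 and 14. For insulation values a window of 5 bins gave 3 (18) from 3 h to 10 h and 4 (9) for pre-S versus 10 h, and the chromosome mean as reference gave 0, 21 and 5 (15) from 3 h to 10 h, for pre-S versus 10 h and between the groups at 33 h. Centring on the median gave 11 from 3 h to 10 h, 35 (23) for imminent division versus 10 h and 34 between the groups at 33 h.

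Leaving out each library in turn, for 10 h versus 3 h and then the 3 comparisons in order, gave 0 to 0, 2 to 9, 2 to 7 and 0 to 0 calls inside the bin. Under 1 Mb it gave 0 to 1, 8 to 23, 3 to 18 and 0 to 8, at 1 to 10 Mb 0 to 2, 8 to 20, 9 to 23 and 0 to 6, and beyond 10 Mb 0 to 1, 12 to 20, 6 to 26 and 10 to 28. Compartment calls were 1 to 3, 13 to 19, 4 to 15 and 2 to 11, insulation calls 4 to 19, 19 to 23, 4 to 11 and 10 to 18, and called pairs 0 to 0, 15 to 141, 0 to 21 and 0 to 14. A group left with 1 library is assumed to vary like the others.

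The direction turned for 19 values. With coverage offsets the log2 change was 0.00702 at Rrm2 under 1 Mb at imminent division, 0.11 at Mcm3 and -0.0698 at Mcm6 under 1 Mb in pre-S cells, 0.0471 at Rrm2 beyond 10 Mb in pre-S cells, and -0.0617 at Cdc6 beyond 10 Mb between the groups at 33 h. Mcm6 under 1 Mb in pre-S cells was -0.15 with TMM factors and -0.14 with DESeq2. For insulation a window of 5 bins gave -0.00675 at Mcm6 and -0.00175 at Pcna from 3 h to 10 h. The chromosome mean gave -0.0645 at Mcm2 and -0.19 at Mcm6 at imminent division, and -0.0387 at Gins1 and -0.0218 at Rrm2 in pre-S cells. Centring gave -0.00088 at Mcm6 and -0.0757 at Mcm7 at imminent division, and -0.0469 at Mcm6 between the groups at 33 h. Compartment values in 250 kb bins differed by -0.0925 at Rrm2 at imminent division, and between the groups at 33 h by -0.0912 at Rrm2 and 0.0402 at Rfc3.

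The numbers of the replicates did not pair the libraries, since the deviations of same-numbered libraries from their group means correlated between -0.48 and 0.13. With the replicate number as a block, 12 of the 150 named calls were lost, and between the groups at 33 h the replicate block gave 3 calls under 1 Mb (5 without it), 0 at 1 to 10 Mb (2) and 7 compartment calls (4). The replicate block moved no other count of calls by more than 1.5 times.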
